A study of Caenorhabditis elegans with 2 samples.

Results

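Small nucleolar RNAs (snoRNAs) are short stable RNAs that guide chemical changes of ribosomal and spliceosomal RNA. Box C/D snoRNAs direct ribose methylation by fibrillarin, and box H/ACA snoRNAs direct the change of uridine to pseudouridine by dyskerin. In animals many snoRNA genes lie in introns of protein-coding host genes and are released from the spliced intron, while others have promoters of their own. EFL-1 is a Caenorhabditis elegans E2F transcription factor, a family that acts with a DP partner and pocket proteins at genes of cell division.

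The regions described here are windows around the 5' end of each gene that Ensembl annotates as a snoRNA on the 6 nuclear chromosomes. A window takes in 1000 bp before the 5' end and 500 bp after it. They were chosen by annotation, and the measure read in them is the position and signal of EFL-1 peaks. This gene class was picked with its peaks already known, so all counts below are descriptions. There were 346 such genes, of 46890 nuclear genes in all, with a median length of 130 bp (54 to 344 bp). Of these, 216 lay inside a protein-coding gene, 183 of them on the host's strand and 33 on the opposite strand only, and 130 lay outside. EFL-1 was measured by chromatin immunoprecipitation and sequencing in whole, mixed-sex L1 larvae of strain YL418, which carries unc-119(ed3) and the integrated transgene vrIs65 with GFP- and FLAG-tagged EFL-1 under the ges-1 promoter, the efl-1 3' UTR and unc-119(+). The transgene's promoter comes from an intestinal esterase gene, and with peaks from whole larvae the cells behind a peak cannot be told apart. There is 1 group with 2 biological replicates, numbered 2 and 3, and no second condition, so each comparison is between places in the genome and none carries a test.

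A peak was called present where a summit of the authors' irreproducible discovery rate (IDR) list fell in the window. The deposited signal of these peaks ran from 24.4 to 2581, with a median of 62.0. Read depth is unknown. Percentages carry exact 95% binomial intervals, which cover the counting of genes only. Single summits are given as scaled signal, which is a replicate's signal at the peak over the median of its signals at all IDR peaks, with the mean ± SD (n = 2). Of the IDR peaks, 99.9% overlapped a region of the replicate 2 list and 96.8% one of the replicate 3 list.

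These summits lay at 2 kinds of place. Example sequences, chosen for the letters they hold, are printed first, from the ce11 genome (WBcel235, RefSeq). Coordinates of the printed bases and the strand read are given. The first set lies at the promoters of 3 host genes with strong member peaks, and the capitals mark TTTGAA, the letters of the cell cycle homology region bound by the DREAM complex, of which E2F proteins are part. Each is the copy nearest to the summit. Not every strong host summit held these letters. Among the hosts named below, the summits at iff-2, rpl-15, rpl-6, rps-23, nol-56 and tmem-107 had no TTTGAA within 100 bp.
fbxl-2 promoter, host of B0393.10, chrIII:4757121-4757150, plus strand: tatgcttttattTTTGAAtgtccgccaaca
rps-12 promoter, host of F54E7.10 and F54E7.11, chrIII:5679052-5679081, minus strand: cacgcgggaagcTTTGAAtttcaacagttt
rpl-7A promoter, host of Y24D9A.9 and Y24D9A.10, chrIV:4390695-4390724, plus strand: ttgcgcgcgctgTTTGAAattgagtttttt
The copy labelled rps-12 lay 71 bp from the summit, on the side away from rps-12. That summit was nearer to the divergent gene ska-3 (130 bp), so the gene to which this copy belongs cannot be told apart. The fbxl-2 peak also held an E2F consensus, in capitals, 46 bp from its summit.
fbxl-2 promoter, chrIII:4757211-4757240, minus strand: atgcaatcgaaTTTCGCGCgcgcgtcgtca

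The second set lies just before the snoRNA gene itself. Capitals mark AACNCG and, 5 bases on, TGTC, called the paired letters below.
Y53F4B.47, chrII:15025948-15025977, minus strand: ggcgcggAACCCGtcactTGTCtgctgcgg
ZK994.7, chrV:8500492-8500521, plus strand: ttggcgaAACCCGactcaTGTCggccactc
Y55F3BR.9, chrIV:867169-867198, minus strand: accgcggAACTCGggaggTGTCggccgccg
T06D8.11, chrII:11224117-11224146, plus strand: taggcgaAACTCGcaaggTGTCcgccgcgc
In the third set, at the same kind of place, the capitals mark TGGCNNANT or GTTCNANNC, which are letters of the A box and B box, the internal promoter elements of tRNA genes.
T24H7.6, A box letters, chrII:6248647-6248676, plus strand: cgtacctcaaTGGCGGAGTggttgtatgtg
T24H7.6, B box letters, chrII:6248687-6248716, plus strand: tcacacaatgtagGTTCGACCCccgcttta
F12F6.11, A box letters, chrIV:11549905-11549934, minus strand: gttgattgcaTGGCCGACTggttaacgcag
F12F6.11, B box letters, chrIV:11549865-11549894, minus strand: tttatgcatcacggGTTCGATTCtcgtggc
Y38F2AR.14, A box letters, chrIV:2408666-2408695, minus strand: gttgaacattTGGCCGACTggctaacgcgc
M106.6, B box letters, chrII:10840287-10840316, plus strand: caatcgctcgcggGTTCGAGGCcggcagca

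EFL-1 summits lay in the windows of 94 of the 346 snoRNA genes (27.2%, interval 22.5 to 32.2%), against 11.0% of protein-coding genes. The shares were 14.7% for snRNA genes, 10.3% for tRNA genes and 4.48% for ncRNA genes. The 94 genes held 86 distinct strongest summits, because 8 summits served pairs of neighbouring snoRNA genes. In all, 87 IDR summits (4.61% of the list) fell in snoRNA windows, which cover 0.493% of the nuclear genome, a 9.37-fold ratio. The share went with nearness to coding starts. Of the 201 snoRNA genes whose window overlaps a coding promoter window, 72 had a summit (35.8%, interval 29.2 to 42.9%). Of the 145 with a window clear of them, 22 did (15.2%, 9.76 to 22.1%), an interval that includes the 11.0% of protein-coding genes. Among other genes with windows clear of coding promoters, the share was 12.5% for snRNA, 7.26% for tRNA and 2.22% for ncRNA genes. None of the 94 strongest summits was nearer to the 5' end of a tRNA or snRNA gene than to that of its snoRNA gene.

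By position relative to a host, the share was 28.4% for the 183 snoRNA genes on their host's strand (interval 22.0 to 35.5%), 24.2% for the 33 on the opposite strand (11.1 to 42.3%) and 26.2% for the 130 outside (18.8 to 34.6%). These intervals overlap each other. The interval of protein-coding genes was 10.6 to 11.5%, and that of the opposite-strand class overlaps it. As 16 members share their strongest summit with another member, genes are not independent counts. No difference from protein-coding genes was tested.

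**Figure D1:**
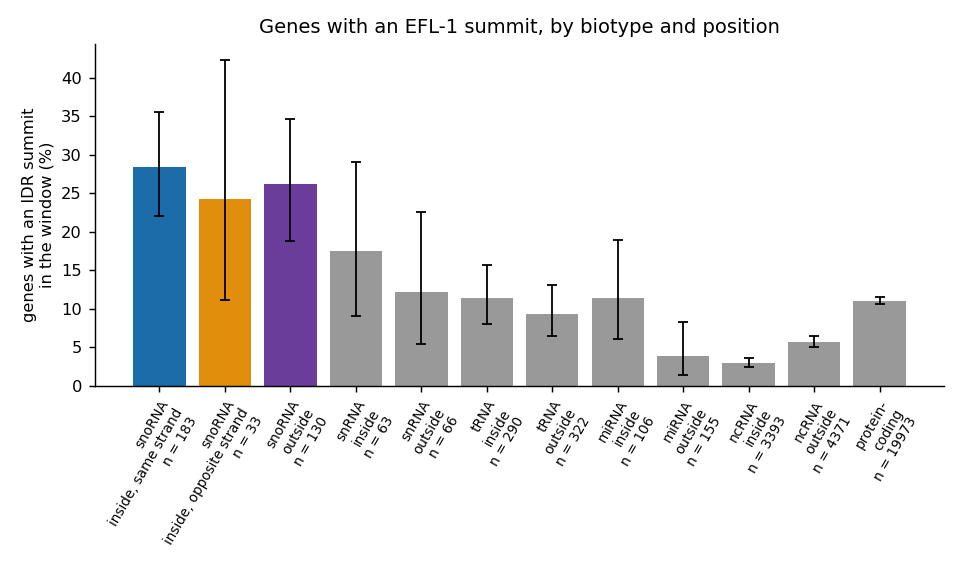
Percentage of genes with an IDR summit in the window (vertical axis) for snoRNA genes by position, then for other biotypes inside or outside a protein-coding gene and for protein-coding genes, with exact 95% binomial intervals as error bars. The 3 snoRNA bars stand at 28.4%, 24.2% and 26.2%, and the protein-coding bar at 11.0%.

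The share varied with the list used. Among the stronger 50% of the IDR peaks 10.1% of snoRNA genes had a summit, against 6.48% of protein-coding genes. With as many of the strongest regions of replicate 2 alone, the share was 29.8%, against 10.8% of protein-coding genes, and with those of replicate 3 alone it was 19.1%, against 10.4%. In narrower windows, of 300 bp before and 100 bp after the 5' end, it was 17.1%, against 7.17% of protein-coding genes. The pooled list of 30000 regions put a summit in the windows of 225 snoRNA genes (65.0%), against 51.0% of protein-coding genes. For the 131 snoRNA genes with a pooled but no IDR summit, the pooled signal was 5.74 to 23.4, with a median of 9.10, close to the 7.83 of the whole pooled list. The remaining 121 had no pooled summit.

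The members just inside the threshold were C54G4.16, at 24.4, and Y17G7B.25, at 24.9. Just outside were C27H5.9 and C27H5.10, which lie in pdl-1 on the opposite strand and share a pooled region with a signal of 23.4. A summit lay within 100 bp beyond the window of 3 further genes, among them F17C11.15 in the translation elongation factor gene eef-1G, whose promoter peak of 434.3 stood 28 bp past the window's edge.

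On the X chromosome 2 of 33 snoRNA genes had a summit (6.06%, interval 0.743 to 20.2%), against 92 of 313 on the autosomes (29.4%, 24.4 to 34.8%). Protein-coding genes showed the same order, with 2.71% on X and 12.3% on the autosomes. Both X members, D2021.6 (signal 41.6) and T27A8.8 (signal 53.2), lay outside protein-coding genes.

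The members were split by where their strongest summit lay. The strongest summit was nearer to the snoRNA gene's 5' end than to any protein-coding 5' end for 59 of the 94 members (62.8%), and nearer to a protein-coding 5' end for the other 35. For 22 of the 59 it also lay in a coding promoter window. By position, the summit was nearer to the snoRNA for 20 of 52 members on the host's strand, 8 of 8 on the opposite strand and 31 of 34 outside. The signal of the 58 distinct summits nearer to the snoRNA ran from 24.4 to 231 with a median of 44.4, and 12 of them were among the stronger 50% of IDR peaks. The 28 summits nearer to a coding start had signals of 26.8 to 2090 with a median of 74.8, and 17 of them were among the stronger 50%. Median positions were 48 bp upstream of the snoRNA for the summits nearer to it and 578 bp upstream for the others. The gap between these medians follows in part from the way the summits were split.

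**Figure D2:**
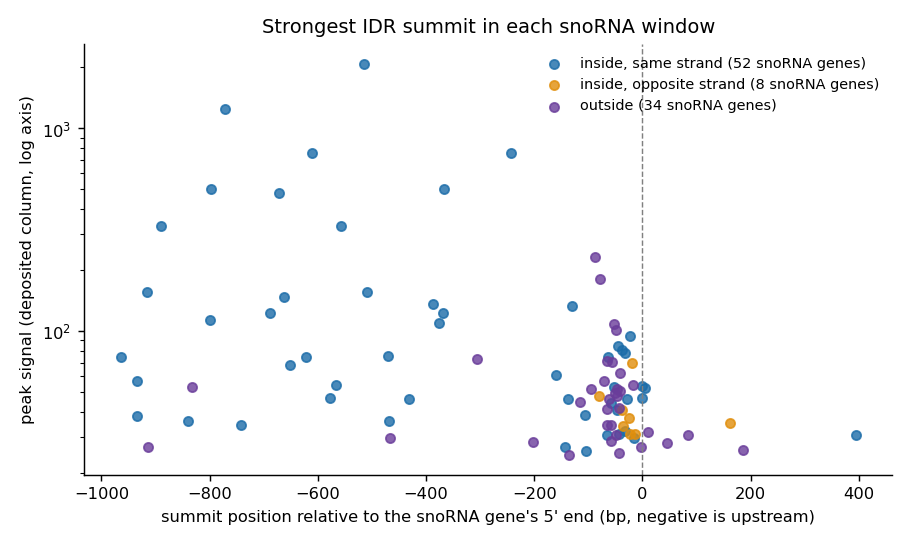
Position of the strongest IDR summit relative to the snoRNA gene's 5' end in bp (horizontal axis, negative is upstream) and deposited peak signal (vertical log axis), 1 point per snoRNA gene. Summits of 23 of the 34 genes outside coding genes and of 7 of the 8 on the opposite strand lie within 100 bp upstream, and the strongest peaks, up to 2090, lie farther upstream of genes on their host's strand.

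**Figure D3:**
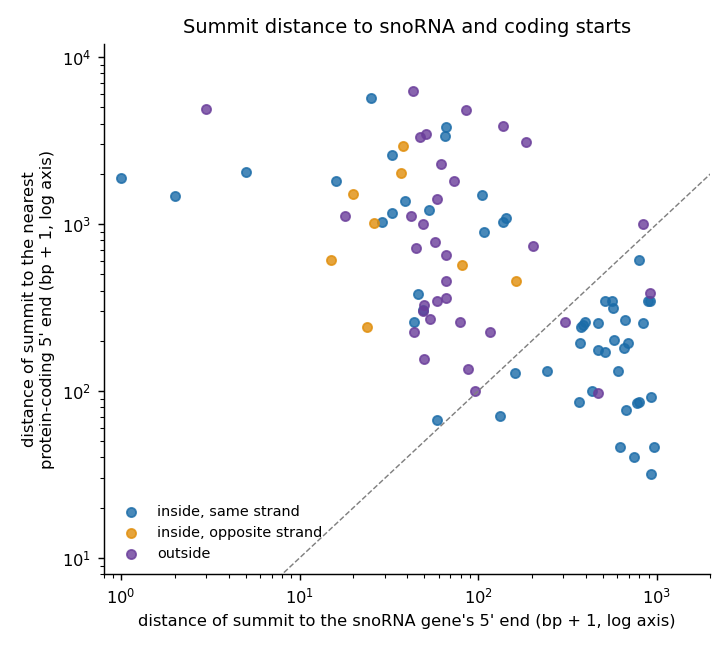
Distance of each member's strongest summit to the snoRNA gene's 5' end (horizontal log axis, bp plus 1) and to the nearest protein-coding 5' end (vertical log axis, bp plus 1), coloured by position. Members above the dashed line of equal distance, 59 of 94, are nearer to the snoRNA gene, and all 8 opposite-strand members are among them. Y23H5B.10, 16167 bp from the nearest coding 5' end, lies beyond the vertical axis and is not shown.

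At host promoters the strongest summit was that of cdc-48.1, which encodes an AAA ATPase that extracts ubiquitinated proteins. It stood 171 bp upstream of the host's 5' end and 514 bp upstream of C06A1.9, with a signal of 2090, rank 3 of all IDR peaks. Its scaled signal was 30.9 in replicate 2 and 35.7 in replicate 3 (33.3 ± 3.38, n = 2). The peak at fbxl-2, an F-box protein gene that hosts B0393.10, had a signal of 1242, with scaled values of 22.4 in replicate 2 and 11.4 in replicate 3 (16.9 ± 7.78). The replicates differed more here than at cdc-48.1, and both values were far above the replicate median.

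Genes for the translation machinery hosted 6 of the next 8 summits. F54E7.10 and F54E7.11 lie in rps-12, a small-subunit ribosomal protein gene, and share a summit of signal 756 that stood 163 bp upstream of rps-12 and 130 bp from the divergent kinetochore gene ska-3. Its scaled values were 13.3 in replicate 2 and 7.48 in replicate 3 (10.4 ± 4.14). The summit shared by Y24D9A.9 and Y24D9A.10 in rpl-7A, a large-subunit gene, had a signal of 504 and scaled values of 8.28 and 6.50 in replicates 2 and 3 (7.39 ± 1.26). F54C9.12 lies in iff-2, which encodes the translation factor eIF5A, and its summit of signal 482 had scaled values of 9.03 and 3.69 in replicates 2 and 3 (6.36 ± 3.77). All of these were above the replicate median in both libraries.

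The next hosts had weaker signals. At rpl-15, host of K11H12.12 and K11H12.13, the scaled signal was 4.84 ± 0.901. It was 2.59 ± 0.558 at rpl-6, host of R151.11 and R151.12, and 2.41 ± 0.373 at rps-23, host of F28D1.13. K07C5.11 lies in nol-56, the gene for a core protein of box C/D snoRNPs, where the scaled signal was 2.13 in replicate 2 and 2.04 in replicate 3 (2.09 ± 0.0659). F39B2.14 lies in tmem-107, a gene for a protein of the ciliary transition zone, with 1.88 ± 0.567. Several of these host summits also lie in the promoter window of a second coding gene. The second genes are ska-3 beside rps-12, set-21 beside rpl-7A, F54C9.14 beside iff-2, K11H12.8 beside rpl-15, dpm-3 beside rps-23 and the ribosomal protein gene rps-26 beside tmem-107. For these summits the gene to which each belongs cannot be told apart.

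Over all hosts, 70 of 192 genes (36.5%, interval 29.6 to 43.7%) had an IDR summit in their own promoter window, against the 11.0% of all protein-coding genes. Their median signal was 80.1, against 78.4 for all protein-coding genes with a summit. Ribosomal protein genes were taken by symbol (rpl-, rps- or rla-), and any host with another symbol counts among the remaining hosts. Of the ribosomal protein hosts 12 of 13 had a summit, the exception being rpl-2. Of ribosomal protein genes without a snoRNA gene, 54 of 68 did (79.4%, interval 67.9 to 88.3%). The interval of the ribosomal hosts, 64.0 to 99.8%, overlaps that of the ribosomal genes without one. Among translation factor hosts iff-2 and eef-1G had a summit and eif-4A3 did not. The host nol-56, counted apart as a snoRNP protein gene, had a summit too. The remaining 175 hosts held 55 with a summit (31.4%, interval 24.6 to 38.9%). For 39 of the 70 hosts the summit lay in no window of their snoRNA genes, as at eef-1G.

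Genes for the proteins that bind snoRNAs also had promoter summits. All 4 box C/D core genes had one. For nol-58 the signal was 715 and the scaled mean 10.6 ± 1.42, and for fib-1, the methyltransferase fibrillarin, 125 and 1.70 ± 0.778. The value was 0.925 ± 0.531 for snu-13. Of the 4 box H/ACA core genes, 3 had a summit. Y48A6B.3 reached a signal of 989 with scaled values of 15.9 in replicate 2 and 13.8 in replicate 3 (14.8 ± 1.51), nola-3 had 2.03 ± 0.938, dkc-1, the pseudouridine synthase, had 0.641 ± 0.0989, and garr-1 had no IDR summit. Among snoRNP assembly genes ruvb-1 (0.585 ± 0.0284) and ruvb-2 (3.06 ± 0.264) had one and shq-1 did not. In ribosome assembly the list had summits at 5 of 9 genes found in the annotation, the strongest at rbd-1, an RNA-binding protein gene, with a signal of 1478 (21.4 ± 5.16). The summits on these lists stood from 82 bp (fib-1) to 623 bp (nola-3) upstream of the gene. For the genes named here, it was not examined whether the summit also lies in a second coding gene's promoter window. The gene to which each summit belongs is therefore not settled. The lists hold few genes, and the share to read them against is the 11.0% of all protein-coding genes.

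Close to the snoRNA gene itself, from 100 bp upstream to 50 bp downstream of its 5' end, a summit was found for 48 genes (13.9%). The same narrow window held one at 2.02% of protein-coding genes, 7.52% of tRNA genes and 11.6% of snRNA genes. These bounds were set after the positions had been seen. Summits of protein-coding genes tended to lie farther upstream, with 25.9% from 200 to 101 bp and 15.6% from 100 to 1 bp before the 5' end. These 2 shares are of 2122 genes with a summit, fewer than the 2200 with one at any transcript's 5' end. The contrast with protein-coding genes thus depends in part on the bounds. The 48 were 25 of 130 genes outside (19.2%), 7 of 33 on the opposite strand (21.2%) and 16 of 183 on the host's strand (8.74%), with signals from 24.9 to 231 and a median of 47.2. With replicate 2 alone 57 genes had a close summit (16.5%), against 2.01% of protein-coding genes, and with replicate 3 alone 22 did (6.36%), against 1.88%. Among the stronger 50% of IDR peaks the share was 3.47%, against 1.16% of protein-coding genes. The pooled list gave 83 (24.0%), against 9.17% of protein-coding genes.

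Outside protein-coding genes the strongest was Y53F4B.47, 87 bp upstream of the snoRNA and close to the cap methyltransferase gene cmtr-1, with a signal of 231. Its scaled signal was 3.87 in replicate 2 and 2.83 in replicate 3 (3.35 ± 0.739). F09G2.14 followed with a signal of 180, 78 bp upstream (2.55 ± 0.853). C36E8.11, beside the gene of the RNA polymerase I factor tif-1A, had 1.99 in replicate 2 and 0.791 in replicate 3 (1.39 ± 0.846), and Y75B12B.12 had 1.93 and 0.582 in replicates 2 and 3 (1.26 ± 0.956). The next were F37F2.4 (0.989 ± 0.170), whose summit stood 306 bp upstream, M7.15 (1.09 ± 0.138) and F59C6.15 (1.03 ± 0.181). F25H2.15 had 1.23 in replicate 2 and 0.464 in replicate 3 (0.848 ± 0.544). T26A8.6 had 1.15 in replicate 2 and 0.192 in replicate 3 (0.672 ± 0.680), where its region ranked 18153 of 30000. F12F6.11 had 0.980 and 0.568 in replicates 2 and 3 (0.774 ± 0.291). From C36E8.11 to T26A8.6 in this order, all 7 genes were above the replicate median in replicate 2 and below it in replicate 3. The summits of Y53F4B.47, F09G2.14, C36E8.11, Y75B12B.12, F37F2.4, M7.15 and F59C6.15 also lay in a coding promoter window. That of F37F2.4 was nearer to the coding gene F37F2.2 (257 bp) than to the snoRNA. For these summits the gene to which each belongs cannot be told apart.

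For 37 members the strongest summit lay in no coding promoter window, 22 of them inside and 15 outside protein-coding genes, and 29 of the 37 had it close to the snoRNA. Of the 345 IDR summits outside coding promoter windows, 36 lay in a snoRNA window (10.4%), as did 2 of the strongest 50 of them. Signals ran from 24.4 to 94.9. The strongest was at ZK994.7 in pxn-1, a peroxidasin gene, 24 bp upstream of the snoRNA and 5666 bp from any coding 5' end, in the peak chrV:8500413-8500696. It had a scaled signal of 1.92 in replicate 2 and 0.365 in replicate 3 (1.14 ± 1.10), so the replicates disagree about its height. T24H7.6 (1.11 ± 0.372), Y38F2AR.14 (1.04 ± 0.357) and M106.6 (1.07 ± 0.354) followed, each inside a gene on its strand and each near the replicate median. M106.6 lies in mix-1, a condensin gene whose own promoter has a separate summit of signal 146, and its close summit stood 3374 bp from any coding 5' end. Y55F3BR.9, inside Y55F3BR.2 on the opposite strand, had 1.47 in replicate 2 and no overlapping region in the replicate 3 list. T06D8.11 in plpr-1 had 0.739 ± 0.185, with the pooled summit at the 5' end itself. T27A8.8 had 0.648 ± 0.193 with a summit 833 bp upstream.

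**Figure D4:**
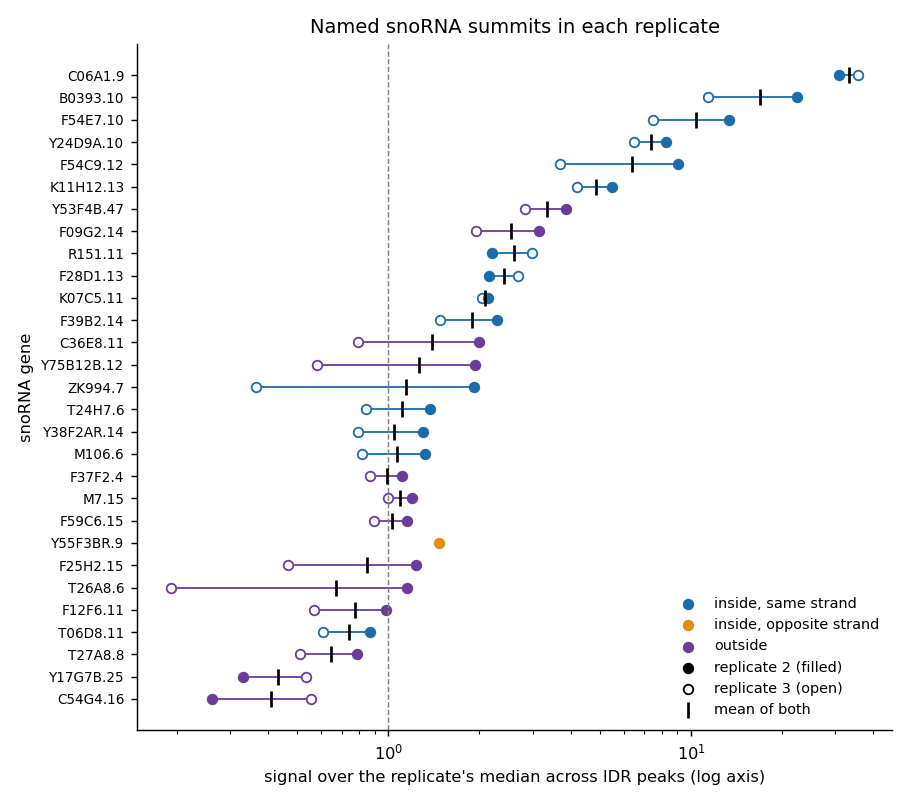
Signal of each named snoRNA summit divided by the replicate's median over IDR peaks (horizontal log axis), replicate 2 filled, replicate 3 open and their mean as a bar, in order of pooled signal and coloured by position. C06A1.9 leads at 33.3, and most summits below Y53F4B.47 at snoRNA genes outside hosts have replicate 3 to the left of replicate 2.

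Both kinds of summit were compared between the libraries. Of the 58 distinct summits nearer to a snoRNA gene, 52 had a region in both replicate lists, and replicate 2 was higher after scaling at 39 of them. Their median scaled signal was 0.714 in replicate 2 and 0.554 in replicate 3, and 55 were among as many top regions of replicate 2 as the IDR list has peaks, against 33 in replicate 3. Of the 28 nearer to a coding start, 26 had both regions, and replicate 2 was higher at 15. The difference between the 2 kinds was not tested. Medians there were 1.15 in replicate 2 and 1.41 in replicate 3, and 28 were among those top regions of replicate 2 against 25 in replicate 3. Over all IDR peaks, 92.2% were among them in replicate 2 and 78.2% in replicate 3. A difference in read depth between the libraries cannot be read from these lists.

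Letters of E2F-linked elements were counted around the summits. TTTGAA lay within 100 bp, on either strand, of 28 of the 86 distinct member summits (32.6%, interval 22.8 to 43.5%), against 49.8% of all IDR summits. It was found at 16 of the 58 summits nearer to a snoRNA (27.6%, 16.7 to 40.9%) and at 12 of the 28 nearer to a coding start (42.9%, 24.5 to 62.8%), and these intervals overlap. The gap to the whole list depended on the span searched. Within 50 bp the share was 16.3% of member summits against 33.4% of all IDR summits, and within 250 bp it was 80.2% against 81.2%. The E2F consensus, searched as TTTCCCGC, TTTCGCGC, TTTGCCGC or TTTGGCGC, lay at 5 of the 86 (5.81%, 1.91 to 13.05%), against 12.4% of all IDR summits. It lay at 4 of the 58 nearer to a snoRNA (6.90%) and at 1 of the 28 nearer to a coding start (3.57%). GC content over the same 201 bp was 49.0% at summits nearer to a snoRNA, 43.3% at those nearer to a coding start and 40.7% at all IDR summits. GC content was thus higher where the share of TTTGAA was lower, and its part in that share was not tested.

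In the 120 bases before the gene, the paired letters were present at 17 of the 48 snoRNA genes with a close summit (35.4%). They were present at none of the 46 with a summit elsewhere in the window and at 18 of the 252 with no IDR summit (7.14%). The same letters stood before 30 of 129 snRNA genes (23.3%), 2 of 612 tRNA genes and 12 of 19973 protein-coding genes (0.0601%). On the opposite strand they occurred before 1 of the 48. In the 17 genes the first base lay 80 to 54 bases before the 5' end, with a median of 58, and the centre of the letters lay a median of 18 bp from the summit. As background, snRNA genes of animals carry a proximal sequence element in their upstream region.

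B box letters stood before 11 of the 48 genes with a close summit (22.9%), against 5 of the 46 with a summit elsewhere, 17 of the 252 with none (6.75%) and 1.68% of protein-coding genes. A box letters stood before 13 of the 48 (27.1%), against 3 of the 46, 7.54% of the 252 and 1.77% of protein-coding genes. On the opposite strand A box letters stood before 2 of the 48 and B box letters before none. Over all 346 snoRNA genes, A box letters stood before 35 on the gene's strand and 10 on the opposite strand. For protein-coding genes these counts were 353 and 404. A box and B box letters both stood before 5 of the 48 and before 7 of the 19973 protein-coding genes. No snoRNA gene had both the paired and the B box letters, and 28 of the 48 (58.3%) had one or the other. Of the 68 snoRNA genes with either, 28 had a close IDR summit (41.2%), against 20 of the 278 without (7.19%). All 3 words were read off these upstream sequences after their summits were known, so these shares describe the members and support nothing further. In no snoRNA gene did matches of these words overlap, and a match is a run of letters, not a shown site.

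**Figure D5:**
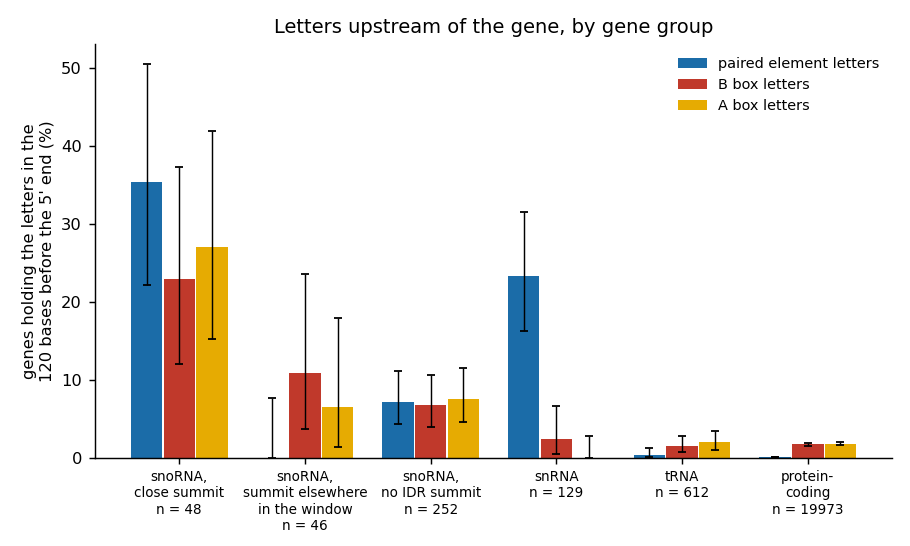
Percentage of genes holding each set of letters in the 120 bases before the 5' end (vertical axis), for snoRNA genes by summit position, then snRNA, tRNA and protein-coding genes, with exact 95% binomial intervals. The paired letters stand at 35.4% with a close summit, at 0 of 46 with a summit elsewhere in the window and at 23.3% of snRNA genes.

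The kind of snoRNA was read only from simple letters. ACA letters, placed 2 to 4 bases from the 3' end as in box H/ACA snoRNAs, were found in 75 genes, and 35 of them had a summit (46.7%, interval 35.1 to 58.6%). In 23 of these 75 genes (30.7%) the summit was nearer to a coding start, and in 8 (10.7%) there was a close one. The box C and D letters TGATG and CTGA, within 20 bases of the respective ends, were found in 23 genes, of which 10 had a summit (43.5%, 23.2 to 65.5%), 8 of them close and 1 nearer to a coding start. The 248 genes with neither had a summit in 49 cases (19.8%, 15.0 to 25.3%), 32 of them close and 11 nearer to a coding start. The median length was 133 bp in the ACA class, 78 bp in the C and D class and 129 bp in the rest. Inside protein-coding genes the shares were 30 of 60 with ACA letters (interval 36.8 to 63.2%), 6 of 16 with C and D letters (37.5%, 15.2 to 64.6%) and 24 of 140 with neither (17.1%, 11.3 to 24.4%). Outside they were 5 of 15 with ACA letters (33.3%, 11.8 to 61.6%), 4 of 7 with C and D letters (57.1%, 18.4 to 90.1%) and 25 of 108 with neither (23.1%, 15.6 to 32.2%), and these 3 intervals overlap.

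Near-identical copies touched few of these peaks. In 81 of the 86 member peaks no run of 36 bases occurred elsewhere in the nuclear genome. The highest shares were 28.9% at F59C6.15 and 28.1% at F25H2.15, both on chromosome I and both with the paired letters, then 11.2% at T26A8.6 and 10.4% at the rpl-7A peak. The placing of reads with several matches is not stated, so the signal at F59C6.15 and F25H2.15 is uncertain.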

How the data were processed

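The authors deposited narrowPeak lists for the genome build ce11. Their aligner and peak caller were not given in the sources used here. As deposited, column 7 holds the signal, column 9 the −log10 q-value, which was not used, and column 10 the summit offset from the region's start. Per the file headers and notes, the IDR list was derived from the replicate lists and the pooled list. No control track was used here, and read depth is unknown.

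The snoRNA genes, hosts and 5' ends came from Ensembl WBcel235 release 115, and bases from the RefSeq WBcel235 genome. A host is a protein-coding gene that spans the whole snoRNA gene, and protein-coding genes counted at any transcript's 5' end. A replicate's signal at an IDR peak is that of its strongest region overlapping the peak by at least 1 bp. Replicate labels do not say whether cultures were separate beyond calling them biological replicates.

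Named genes are the 10 strongest inside and the 10 strongest outside hosts, the 10 strongest in no coding promoter window, 2 members on each side of the threshold, and fixed lists of snoRNP and ribosome assembly genes (1 name matched no gene). The members, lists and rules were chosen with earlier results of these data known. Window counting was tested on simulated data. Python 3.11.15 was used with numpy 2.4.6, pandas 2.3.3, scipy 1.17.1 and matplotlib 3.10.9. Alternatives were the stronger 50% of peaks, as many of the strongest regions of each replicate alone, windows with 300 bp before and 100 bp after the 5' end, any overlap, the pooled list, stricter host rules and motif windows of 50 or 250 bp. One promoter sequence is not reported here.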

Additional observations from a re-analysis of the deposited data

How the results depend on the processing

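With the stronger 50% of IDR peaks, summits stood at 10.1% of snoRNA genes, 12.96% of those inside and 5.38% of those outside protein-coding genes, 21.4% of hosts, and close to 3.47%. Of the 35 snoRNA genes with such a summit, 85.7% had their strongest one in a coding promoter window. For 34.3% of the 35 genes it was nearer to the snoRNA. With windows of 300 bp before and 100 bp after the 5' end the shares were 17.1% in all, against 7.17% of protein-coding genes, 13.9% inside and 23.4% of hosts. Of the snoRNA genes with a summit there, 23.7% had it in a coding window and 94.9% had it nearer to the snoRNA. The coding windows were narrowed in the same way, and only summits within 300 bp of the snoRNA could count. Both shares thus follow in part from the setting. The pooled list gave 65.0% in all, 63.4% inside, 67.7% outside, 78.1% of hosts and 24.0% close. Leaving out either replicate gave 19.1 to 29.8% in all, 19.4 to 30.1% inside, 18.5 to 29.2% outside, 30.7 to 37.5% of hosts, 6.36 to 16.5% close, 57.3 to 66.7% in a coding window and 47.0 to 64.1% nearer to the snoRNA, the lower share coming from replicate 3 alone except for coding windows. Close summits within 50 bp on either side stood at 8.96%. TTTGAA lay at 16.3% of member summits within 50 bp, against 33.4% of all IDR summits, and at 80.2% within 250 bp, against 81.2%. The other alternatives tried for these shares, 24 in number with those inside the ranges above, stayed within the reported value's interval. No paired analysis was possible because there is 1 group. The bounds of close summits and the upstream letters were chosen after seeing the data.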
